A study of Mus musculus with 6 samples.

Results

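Double-stranded RNA is a mark of viral infection, and mammalian cells carry several proteins that bind it. The genes described here encode the oligoadenylate synthetase (OAS) family, the helicases MDA5 and LGP2, the kinase PKR and the receptor TLR3. They were chosen by symbol as Oas1a, Oas1g, Oas2, Oas3, Oasl1, Oasl2, Ifih1, Dhx58, Eif2ak2 and Tlr3, with every probe set that the platform annotation pairs with a symbol among them. Of the 10 genes, 9 had such a probe set, and 14 of the 45101 probe sets on the array belonged to them. For Oas1g no probe set was paired with it by name, so its own level is not given.

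The series asked what loss of caspase-8, the protease that starts death-receptor apoptosis and restrains necroptosis, does to gene expression in the gut epithelium. The deficient group held 3 C57BL/6 mice with a floxed casp8 gene and a Cre transgene under the villin promoter, which is active in intestinal epithelial cells. The control group held 3 C57BL/6 mice with the same floxed gene and no Cre. Intestinal epithelial cells were isolated from each animal and 1 array was run per animal. The animals' age and the part of the gut are not stated in the sources used here. The labels call the arrays biological replicates. Values are deposited log2 expression, and each gene with several probe sets is represented by the brightest of them unless another is named.

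OAS enzymes bind double-stranded RNA and make short oligoadenylates, which switch on the ribonuclease RNase L and so degrade viral and cellular RNA. MDA5 binds long double-stranded RNA in the cytosol and signals through the adaptor MAVS to interferon genes, while TLR3 reads it in endosomes through the adaptor TRIF. PKR phosphorylates the translation factor eIF2 alpha and slows protein synthesis. Most of these genes are themselves induced by type I and type III interferon, and type III interferon acts mainly on epithelia.

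Interferon acts on many of its target genes through a promoter element, the ISRE, which the factor ISGF3 binds. Promoter windows of RefSeq (GRCm38.p6), running from 250 bases before to 50 after the annotated start, were available for 8 of the 10 genes. The stretches below show where the core of that element lies in the 5 windows that hold it. They read 5′ to 3′ along the gene, all on the minus strand, with matches to GAAANNGAAA, where N is any base, in capitals.
Oas1a, chr5:120907526-120907585, the 60 bases before the start: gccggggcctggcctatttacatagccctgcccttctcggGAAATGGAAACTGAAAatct
Oas1g, chr5:120887614-120887673, the 60 bases before the start: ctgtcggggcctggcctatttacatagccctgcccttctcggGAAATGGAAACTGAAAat
Oas3, chr5:120777710-120777769, ending 51 bases before the start: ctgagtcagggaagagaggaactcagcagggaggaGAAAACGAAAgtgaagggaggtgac
Ifih1, chr2:62646207-62646230, after the start: gagaatcGAAACAGAAAccgatct
Eif2ak2, chr17:78882538-78882561, after the start: ccgccggGAAAACGAAAcagaaga

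In Oas1a and Oas1g the capitals cover 2 overlapping matches, and 99 of the last 100 aligned positions of these windows were identical. Over the whole windows 261 of 303 aligned positions were identical (86.14%). The core, searched on both strands, was found in 3.44% of all 32851 windows in the table. A second interferon element, GAS, searched as TTCNNNGAA, which reads the same on both strands, matched in 2 of the 8 windows, those of Oas1a and Eif2ak2, and in 8.30% of all windows. Windows of Oasl1, Oasl2 and Tlr3 held neither motif, and Oas2 and Dhx58 were not searched. A match describes letters only and is not evidence that a factor binds there.

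**Figure D1:**
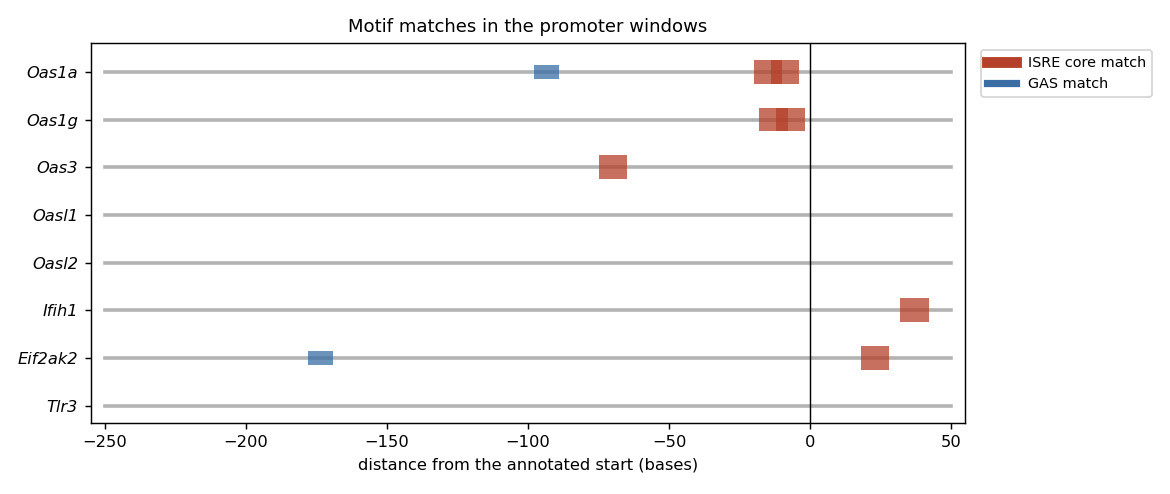
Matches to the ISRE core (wide red bars) and to GAS (narrow blue bars) in the promoter windows of 8 genes, by distance in bases from the annotated start. In Oas1a, Oas1g and Oas3 the ISRE core lies before the start, in Ifih1 and Eif2ak2 after it, and Oasl1, Oasl2 and Tlr3 have no match.

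Without caspase-8, most OAS and helicase genes stood higher in every deficient array than in every control array, by 1.45-fold for Ifih1 to 2.14-fold for Oasl1. By the test across all genes only Oas1a rose, 1.91-fold (limma, adjusted p = 0.0246, n = 3 per group), and the other 8 genes did not pass. Eif2ak2 and Tlr3 overlapped between the groups. Among all 18193 genes, 0.308% were called higher. In 7 of the 9 measured genes all deficient arrays lay above all control arrays, as they did in 11.5% of all genes, and the same 7 had an unadjusted p under 0.05 with a positive difference, against 8.12% of all genes. The median log2 difference of the 9 genes was 0.87, beside 0.022 for all genes, and 8 of the 9 differences were positive, as were 53.9% of all. Arrays of epithelial preparations measure many cells together, so more cells that carry an RNA and more of that RNA per cell cannot be told apart.

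Oas1a, a synthetase that makes oligoadenylates, read 11.18, 11.21 and 11.27 on the log2 scale in the deficient arrays, against 10.09, 10.36 and 10.41 in the controls. The groups were far apart and the deficient arrays lay close together. Its log2 difference was 0.94 (SE 0.12, 95% confidence interval 0.65 to 1.22), and 0.869% of all genes had a larger one. The call was kept without deficient replicate 1 (adjusted p = 0.0343) and lost when any 1 of the other 5 arrays was left out (adjusted p = 0.0519 to 0.131), while the difference stayed between 0.84 and 1.0. Oas1a and its neighbour Oas1g are close relatives, and whether this probe set also reads Oas1g was not tested.

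Oas2, another synthetase, read 7.69, 8.0 and 7.29 in the deficient arrays, against 6.02, 6.96 and 7.0 in the controls. The groups did not overlap, but control replicate 1 lay well below the other controls. The log2 difference of 1.0 (SE 0.29) did not pass (limma, adjusted p = 0.162), and without control replicate 1 it was 0.68. Oas3, the synthetase that responds to long double-stranded RNA, read 7.46, 7.69 and 7.75 in the deficient arrays, against 6.79, 7.16 and 6.76 in the controls. Every deficient array was above the highest control, and the log2 difference was 0.73 (SE 0.15, adjusted p = 0.0758).

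The OAS-like proteins carry ubiquitin-like domains. Oasl1, which in mice lacks synthetase activity and restrains translation of the interferon regulator Irf7, had the highest difference among the genes described here. It read 10.72, 11.05 and 10.75 in the deficient arrays, against 9.30, 9.75 and 10.17 in the controls, a log2 difference of 1.10 (SE 0.22, limma adjusted p = 0.0731). Control replicate 3 was nearest to the deficient arrays and still below all of them. Oasl2, which in mice keeps synthetase activity, read 9.65, 10.19 and 9.75 in the deficient arrays, against 8.46, 9.32 and 8.98 in the controls. These did not overlap either, and the log2 difference was 0.95 (SE 0.24, adjusted p = 0.12).

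**Figure D2:**
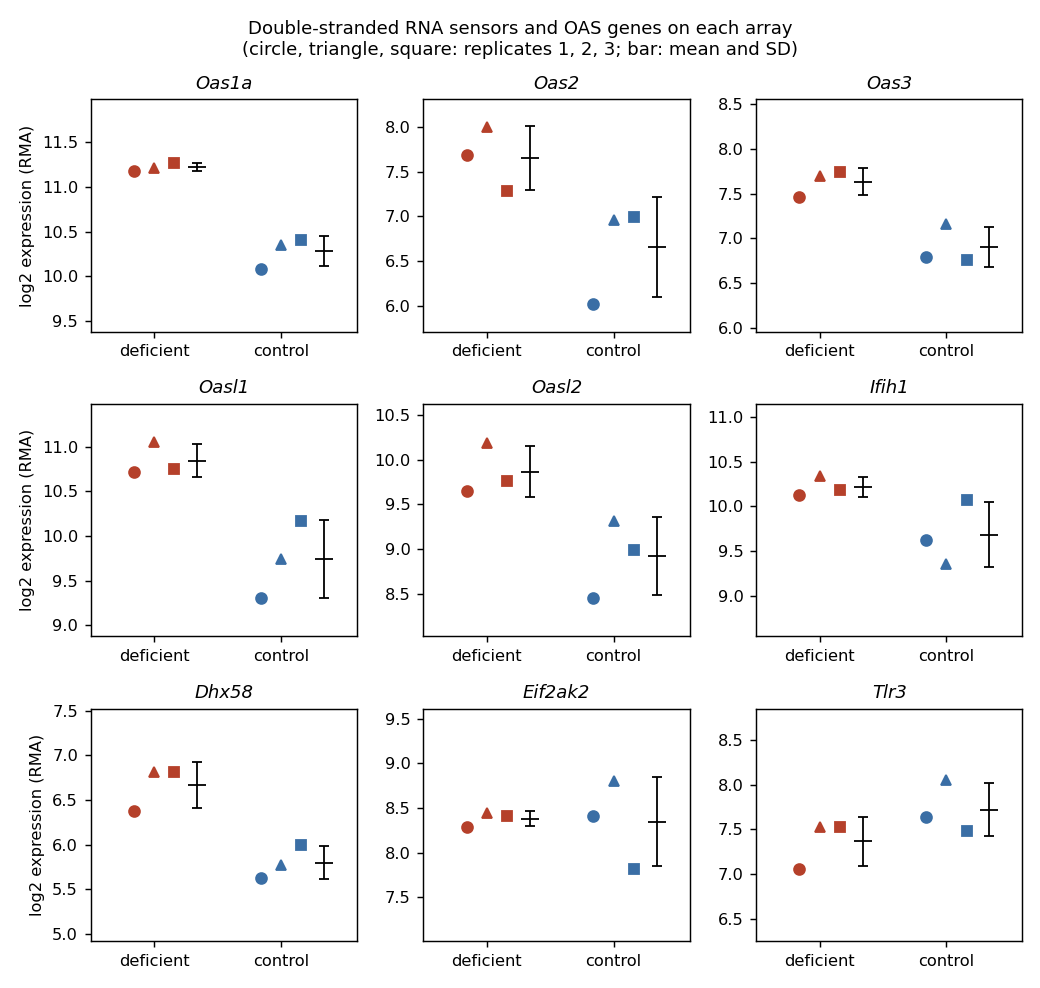
Log2 expression of the 9 measured genes on each array, caspase-8 deficient in red and floxed control in blue, with each group's mean and SD (n = 3). All panels span the same number of log2 units. Oas1a shows the clearest gap, with deficient arrays from 11.18 to 11.27 and controls from 10.09 to 10.41, while Eif2ak2 and Tlr3 overlap.

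Among the helicases, Ifih1, which encodes MDA5, read 10.12, 10.34 and 10.18 in the deficient arrays, against 9.62, 9.35 and 10.07 in the controls. Control replicate 3 came close to the lowest deficient array, and the log2 difference of 0.53 (SE 0.18) did not pass (limma, adjusted p = 0.217). Dhx58 encodes LGP2, which lacks the signalling domain of MDA5 and modulates it. It read 6.37, 6.81 and 6.82 in the deficient arrays, against 5.63, 5.77 and 5.99 in the controls. The groups were apart by a log2 difference of 0.87 (SE 0.16, adjusted p = 0.063), and without deficient replicate 1 it was 1.02 and passed (adjusted p = 0.0308).

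The probe sets of Dhx58 disagreed. The pair not used for the gene, 1420768_a_at and 1420769_at, lay below the median of the array on all 6 arrays and differed by −0.093 and 0.059 on the log2 scale, with overlapping groups. The mean over all 3 stood at 0.28. RMA compresses differences of dim probe sets, and the files hold no detection call that would say whether this pair measured the transcript.

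Eif2ak2, which encodes PKR, read 8.28, 8.45 and 8.41 in the deficient arrays, against 8.41, 8.81 and 7.82 in the controls. The controls spread on both sides of the deficient arrays, and the log2 difference was 0.033 (SE 0.23, 95% confidence interval −0.50 to 0.56, limma adjusted p = 0.959). Its other probe sets stood higher in the deficient arrays without passing. By 1422006_at they read 6.51, 6.43 and 6.34, against 5.99, 5.85 and 6.29 in the controls (log2 difference 0.38, adjusted p = 0.266 over all probe sets), with no overlap. By 1440866_at the difference was 0.46 (adjusted p = 0.328), and deficient replicate 1 lay among the controls.

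Tlr3 had the single negative difference of the 9 genes. It read 7.05, 7.53 and 7.53 in the deficient arrays, against 7.63, 8.05 and 7.48 in the controls, with a log2 difference of −0.35 (SE 0.19, 95% confidence interval −0.80 to 0.09, limma adjusted p = 0.406). Control replicate 3 lay within the deficient range. The probe set behind these values, 1422782_s_at, is of a type that can bind several transcripts, and 1422781_at gave a difference of 0.019 with overlapping groups. No direction can be given for Tlr3.

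**Figure D3:**
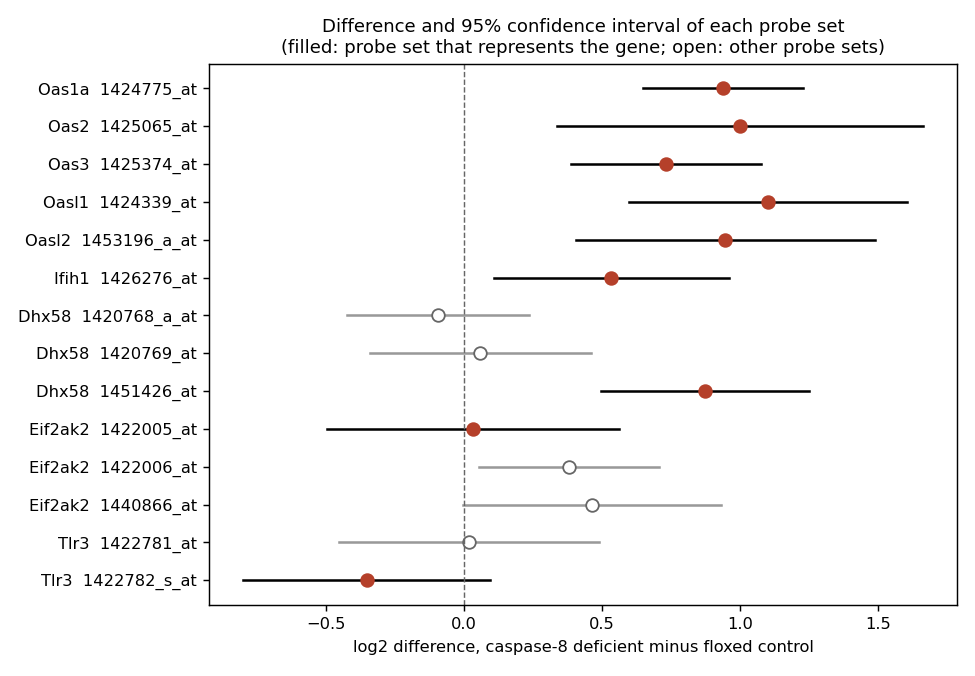
Log2 difference, caspase-8 deficient minus floxed control, of each of the 14 probe sets with its 95% confidence interval from the fit over all probe sets (n = 3 per group). Filled points are the probe sets that represent a gene and open points the others, which for Dhx58 lie near 0 and for Eif2ak2 at 0.38 and 0.46.

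Probe set by probe set, 1 of the 14 passed when p-values were adjusted over all 34945 probe sets with a single gene, the Oas1a probe set at adjusted p = 0.0309, while 0.149% of all probe sets were called higher. In 8 of the 14 the deficient arrays all lay above the controls, beside 11% of all probe sets. Several of these 14 read the same gene and are not separate observations.

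The 3 deficient arrays did not stand equally high. Relative to each gene's control mean, the median of the 9 genes was 0.58, 0.93 and 0.84 in deficient replicates 1, 2 and 3, and −0.17, 0.25 and 0.12 in control replicates 1, 2 and 3. Deficient replicate 1 was the lowest of its group for 8 of the 9 genes, and replicate 2 the highest for 6. Among controls, replicate 1 was the lowest for 5 genes. Even the array with the least change thus lay above the highest control by this median.

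**Figure D4:**
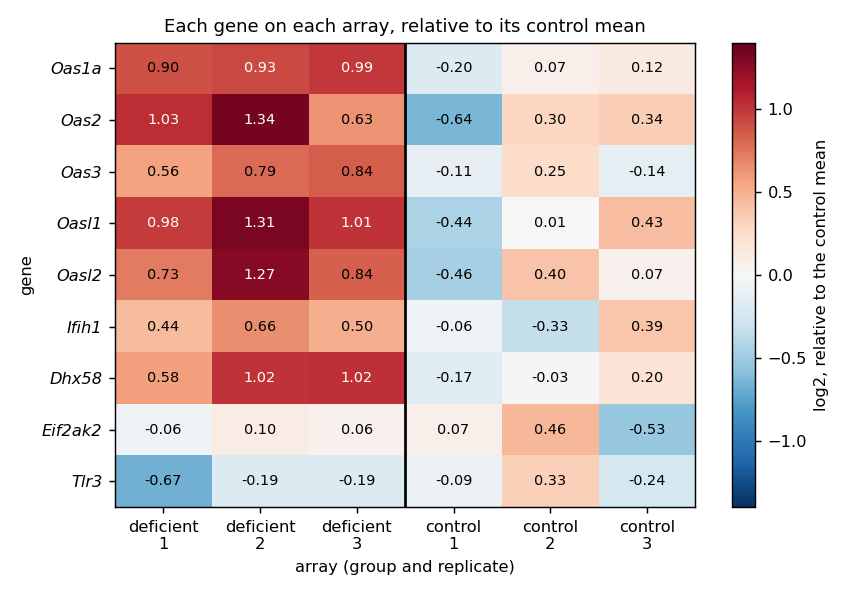
Log2 expression of each gene on each array relative to its mean over the 3 controls, deficient arrays on the left and controls on the right (red higher, blue lower). The upper 7 rows are red in all deficient arrays, and the lower pair, Eif2ak2 and Tlr3, is not.

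Technical differences between arrays moved with the groups in part. On the Gapdh control transcript, the 3′ signal exceeds the 5′ signal by more where RNA is degraded, and this excess on the log2 scale was 0.29, 0.21 and 0.23 in the deficient arrays and 0.68, 0.93 and 0.22 in the controls. Control replicate 3, which matched the deficient arrays in this measure, read 10.41 for Oas1a, below the lowest deficient array. With the Gapdh excess as a covariate Oas1a stood at 0.88 (limma, adjusted p = 0.191), and against control replicate 3 alone, taken to vary like the deficient arrays, at 0.81 (adjusted p = 0.426). Several other members moved more in these settings, and none of the 9 passed in either. The log2 difference of Ifih1 was 0.16 with the covariate and 0.15 against control replicate 3 alone, where it was 0.53 over all arrays. That of Oasl1 was 0.81 and 0.67, where it was 1.10, and that of Oas2 0.88 and 0.66, where it was 1.0. Eif2ak2 stood at 0.52 and 0.56, where it was 0.033, and Tlr3 at −0.11 in both, where it was −0.35. Casp8 itself read 9.27, 9.56 and 10.40 in the deficient arrays and 10.53, 9.74 and 10.24 in the controls. Whether the Casp8 probe set lies in the removed part was not checked, and one outside it would still read the transcript. Casp8 thus does not check the genotypes.

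Epithelial markers were high, with a mean log2 level of 12.34 to 12.41 over 12 genes in the deficient arrays and 12.30 to 12.41 in the controls, and 0 of 12 passed. In 6 of the 12 all deficient arrays lay above the controls and in 1 below, beside 11.5% and 11.2% of all genes, with log2 differences of −0.48 to 0.28 over the list and a median of 0.093. Of 12 markers of T cells and intraepithelial lymphocytes, which also carry several of these sensors, 0 passed and 11 were lower in the deficient arrays. Only 1 was positive, beside 53.9% of all genes. Their mean level was 7.93 to 8.53 in the deficient arrays and 8.19 to 8.80 in the controls. Of 12 myeloid markers the macrophage receptor Mrc1 rose by 1.06 on the log2 scale (limma, adjusted p = 0.0172) and 11 did not pass, at mean levels of 5.43 to 5.64 in the deficient arrays and 5.05 to 5.51 in the controls, which overlap. The median log2 difference of these 12 was 0.088, with 7 positive. Of 7 B cell markers 0 passed and 2 were positive. Their mean levels were 4.31 to 4.37 in the deficient arrays, below the 4.45 to 5.54 in the controls. In 2 of the 7 all deficient arrays lay below the controls, beside 11.2% of all genes. Of 10 fibroblast and smooth muscle markers 0 passed and 5 were positive. Their mean level was 5.66, 4.94 and 4.69 in deficient replicates 1, 2 and 3, and 4.65 to 5.44 in the controls. In 2 of the 10, Acta2 at a log2 difference of 0.87 and Des at 0.32, all deficient arrays lay above the controls. Of 9 endothelial markers 0 passed and 9 were positive, beside 53.9% of all genes, with a median log2 difference of 0.78. Deficient replicate 1 stood at 6.79 against 4.21 and 4.23 in the other deficient arrays and 4.02 to 4.41 in the controls. On this scale no marker is listed at 0. Without deficient replicate 1, 2 of the 9 genes passed, Oas1a and Dhx58, and the median difference was 0.96. Over all 18193 genes 251 passed in that setting, 99 of them higher, against 141, 56 of them higher, with all arrays. The part of Mrc1 and of the endothelial, fibroblast and smooth muscle markers in the result was not tested.

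Many OAS genes are neighbours. In the RefSeq table, Oas2, Oas3, Oas1e, Oas1c, Oas1b, Oas1f, Oas1h, Oas1g, Oas1a and Oas1d follow each other on chromosome 5, with Oasl2 and Oasl1 side by side elsewhere on it. The genes with the larger differences sat at both ends, Oas2 and Oas3 at one and Oas1a near the other. Of the 5 OAS1 genes between them with a probe set of their own, 0 passed in limma, and 1 was higher at an unadjusted p under 0.05 with no overlap. Of all genes 8.12% were higher at that p and 11.5% had all deficient arrays above the controls. The 1 gene was Oas1e, which read 6.73, 6.58 and 6.94 in the deficient arrays, against 6.38, 6.38 and 6.43 in the controls (log2 difference 0.35, adjusted p = 0.225). Oas1b, a transcribed pseudogene in this reference, stood at 0.29, Oas1c at 0.20, Oas1h at −0.0051 and Oas1f at −0.22. Their median was 0.20, and Oas1c, Oas1f and Oas1h averaged below 5 on the log2 scale in both groups, where RMA compresses differences.

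**Figure D5:**
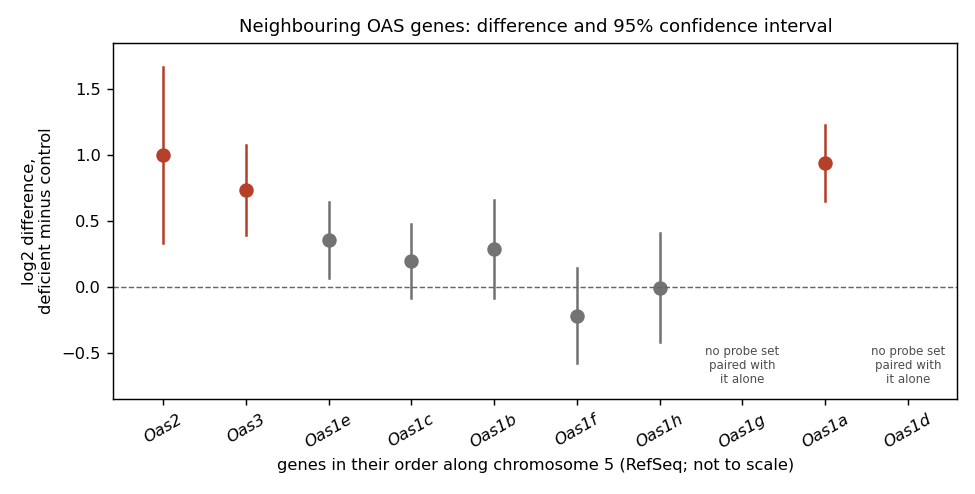
Log2 difference, caspase-8 deficient minus floxed control, with 95% confidence interval, for the neighbouring OAS genes in their order along chromosome 5. The genes described here are in red and the other OAS1 genes in grey. Oas2, Oas3 and Oas1a stand at 0.73 to 1.0 and the grey genes at −0.22 to 0.35, and Oas1g and Oas1d have no probe set paired with them alone.

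The next list holds genes that act beside or below these sensors. Of 36 measured genes of the double-stranded RNA pathway (RNA helicases, adaptors, kinases, RNase L and the eIF2 kinases), 0 passed in limma, with 6 higher and 1 lower at an unadjusted p under 0.05, where 8.12% of all genes were higher at that level. Their median log2 difference was 0.16, and 27 were positive, beside 53.9% of all genes. In 8 all deficient arrays lay above the controls and in 3 below, where 11.5% and 11.2% of all genes did so. Ddx60, an interferon-induced helicase, had the highest difference, with 8.13, 8.76 and 8.81 in the deficient arrays against 7.02, 7.23 and 7.64 in the controls. That was a log2 difference of 1.27 at adjusted p = 0.0532, just short of the threshold, and 1.16 by its second probe set.

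Irf7, the transcription factor that amplifies interferon production, stood at 0.58 (adjusted p = 0.101) and did not overlap between the groups. Ddx58, which encodes the helicase RIG-I, stood at 0.35 (adjusted p = 0.265), and at 0.48 and 0.063 by its other probe sets. Rnf125, a ubiquitin ligase that marks RIG-I for degradation, was at 0.74 (adjusted p = 0.17). The eIF2 kinase Eif2ak4, which responds to amino acid shortage, was lower in all deficient arrays, at −0.52 (adjusted p = 0.109). It read 4.46 to 4.71 in the deficient arrays and 4.96 to 5.17 in the controls, near the array medians of 4.85 to 4.91. By another probe set Eif2ak4 stood at −0.30 with overlapping groups.

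Of 19 measured genes of interferons, their receptors and signalling, 0 passed in limma, with 6 higher and 1 lower at an unadjusted p under 0.05, a median log2 difference of 0.20 and 13 positive. Over all genes 8.12% were higher at that unadjusted p and 53.9% were positive. In 5 of the 19 all deficient arrays lay above the controls and in 1 below, where 11.5% and 11.2% of all genes did so. Usp18, which removes ISG15 and restrains signalling at the receptor, stood at 0.90 (adjusted p = 0.158), with 8.80, 9.06 and 8.98 in the deficient arrays against 7.63, 7.82 and 8.68 in the controls. The receptor chains Ifnar2, Il10rb and Ifnar1 stood at 0.48, 0.41 and 0.27, and the transcription factor Irf8 at −0.41, with adjusted p = 0.13 to 0.275 and no overlap for these 4. By another probe set each, Il10rb stood at −0.12, Ifnar1 at −0.18 and Irf8 at −0.44 on the log2 scale, with overlapping groups. Other probe sets of Ifnar2 stood at 0.24 and 0.28, also with overlap. The interferon gene Ifnb1 read 3.93, 4.14 and 4.49 in the deficient arrays and 4.12, 3.89 and 3.64 in the controls, all below the array medians.

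The last list holds interferon-stimulated genes outside RNA sensing. Of 20 measured, 2 rose, 0 fell and 18 did not pass, where 0.308% of all genes were called higher. All 20 were positive and 12 had deficient arrays that all lay above the controls, beside 53.9% and 11.5% of all genes. Without deficient replicate 2 or 3, or without control replicate 1 or 2, 0 of the 20 passed. Without control replicate 3, 1 passed (Rtp4), and without deficient replicate 1, 5 passed. Over all 18193 genes 56 were called higher with all arrays, 27 without control replicate 3 and 99 without deficient replicate 1. The median log2 difference of the 20 genes was 0.55, beside 0.87 for the 9 RNA sensor and OAS genes. The difference between these medians was not tested. The 2 that rose were Rtp4, a chaperone of membrane receptors, at 1.13 (limma, adjusted p = 0.0258), and Ifit3, which belongs to a family of RNA-binding antiviral proteins, at 1.12 (adjusted p = 0.0454). Herc6, a ligase that attaches ISG15 in mice, stood at 1.20, Xaf1 at 0.81 and Bst2, which tethers virions to the cell surface, at 0.75, with adjusted p = 0.0627, 0.0684 and 0.0778. By other probe sets Rtp4 stood at 0.51, Xaf1 at 0.077 and Herc6 at 0.36 to 1.05.

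Set against the promoter letters, the measured differences did not sort by the presence of the ISRE core. Among the genes whose windows held it, Oas1a stood at 0.94, Oas3 at 0.73, Ifih1 at 0.53 and Eif2ak2 at 0.033. Oasl1 at 1.10, Oasl2 at 0.95 and Tlr3 at −0.35 had no match in theirs. The core was present in the windows of 8 of 17 genes of the interferon-stimulated list, 5 of 33 of the double-stranded RNA pathway, 4 of 18 of interferon signalling and 1 of 3 other OAS1 genes with a window. These windows end 250 bases before the start, and elements farther away were not searched.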

How the data were processed

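The authors deposited log2 expression made with RMA, per the submitters' processing notes. This method removes background, equalises the distributions of the arrays and combines a probe set's probes, and pulls dim signals together. No version is given in the sources used here. The array was a 3′ Affymetrix expression array with biotin-labelled cRNA, per the labels' protocols.

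Probe sets were named through the platform annotation, which can be old. Of 45101, 34945 were paired with 1 gene, 932 with several, 9160 with none and 64 were controls. The brightest probe set represented each of 18193 genes. Deficient minus control was fitted over all genes, and separately over all single-gene probe sets, with limma 3.58.1 in R 4.3.3 (lmFit and eBayes, two-sided, Benjamini-Hochberg, threshold 0.05). The steps were tested on simulated data. The number of arrays limits the precision. Promoter motifs and plots were made with Python 3.11.15, pandas 2.3.3, Biopython 1.88 and matplotlib 3.10.9.

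The genes and lists were chosen with earlier results of these data known. Named were all members, Casp8, the genes of each pathway list that passed and up to 5 with the smallest p, and the 5 genes of most similar pattern. Ifnb1, Mrc1 and Oas1d were named after their values or annotation were seen. Alternatives were a replicate block, dim genes left out, the mean over probe sets, leaving out probe sets that may cross-hybridise, a variance trend, array weights, centring, repeated quantile normalization, RNA integrity and leaving out arrays.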

Additional observations from a re-analysis of the deposited data

How the results depend on the processing

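The number of the 9 genes called ran from 0 to 2 when 1 array was left out, as did that of the 14 probe sets. It was 0 without control replicate 1, 2 or 3 or deficient replicate 2 or 3, and 2 without deficient replicate 1. Over all genes the count of 141 ran from 18 to 251. Leaving out dim genes gave 4 genes (Oas1a, Oas3, Oasl1, Dhx58) and 4 probe sets, with 298 calls over all genes. The variance trend gave 3 genes, array weights 7 genes and 6 probe sets, and repeated quantile normalization 2 genes, with 252 and 1406 calls over all genes for the first pair. With the Gapdh covariate, and without control replicates 1 and 2 together, 0 genes and 0 probe sets passed (36 and 5 calls over all genes). The median difference of the 9 genes was 0.67 without those controls, and lay between 0.68 and 0.97 when 1 array was left out.

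Of the 36 pathway genes 1, Ddx60, passed with the replicate block, without dim genes, with the variance trend and with median centring, 6 passed with array weights, and 0 to 1 without single arrays. Of the 20 interferon-stimulated genes, 17 were left without dim genes and 6 of them passed. With the variance trend 5 of the 20 passed, with array weights 12, with the Gapdh covariate 0, and without single arrays 0 to 5. Over all genes 298 of 9097 passed without dim genes. Of 18193 genes, 252 passed with the variance trend and 1406 with array weights, against 141 in the main fit. The cause of these shifts was not tested.

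The difference of Eif2ak2 ran from −0.23 to 0.56 over all 16 alternatives and from −0.23 to 0.26 without single arrays. It was 0.52 with the Gapdh covariate, 0.56 without control replicates 1 and 2, and below 0 without deficient replicate 2 (−0.00074) or control replicate 3 (−0.23). The sign of Tlr3 changed without probe sets that may cross-hybridise (0.019). For the other 7 genes it was positive in all 16 alternatives each, and Oas1a passed in 9. Deviations of same-numbered arrays correlated across genes at 0.077, 0.105 and −0.0074 for replicates 1, 2 and 3. Replicates 1 correlated best with each other across the groups, as did replicates 2, and replicates 3 did not. The labels state no pairs, and the numbers were not taken as pairs. With the replicate block 1 gene, Oas1a, and 0 probe sets passed.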

Other observations

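Genes outside the list whose levels over the 6 arrays ran most like the mean of the 9 measured genes were looked for by the root mean square distance between centred log2 values. The 5 nearest were Adgrg3, an adhesion receptor, at 0.041, Plxna2, a semaphorin receptor, at 0.074, Nfkbib, an inhibitor of NF-kB, at 0.086, Baiap2l1, a protein of actin-rich membrane folds, at 0.090, and Sfn, a 14-3-3 protein of epithelia, at 0.090. The 9 genes themselves lay at 0.13 for Oas3 to 0.53 for Tlr3, and the median over all genes was 0.39. None of the 5 passed the test across all genes (log2 differences of 0.59 to 0.67, limma, adjusted p = 0.109 to 0.131). Adgrg3 read 3.31 to 4.47 over the 6 arrays, below the median of each array, where RMA compresses differences. The distances over 6 arrays are a description and carry no test.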
